A study of Rattus norvegicus with 26 samples.

Results

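Matrix metalloproteinases and the tissue inhibitors that block them were followed by RNA sequencing at the lesion site of the rat spinal cord after compression injury and after transplantation of mesenchymal stem cells from the human umbilical cord (hUC-MSCs). The 9 genes described are Mmp2, Mmp3, Mmp9, Mmp12, Mmp14, Mmp19, Timp1, Timp2 and Timp3. They were taken by name from the 32883 genes of the count table, without regard to their levels, and all 9 were among the 17990 genes that passed the filter on low counts. Their identifiers in the table are Mmp2 ENSRNOG00000016695, Mmp3 ENSRNOG00000032626, Mmp9 ENSRNOG00000017539, Mmp12 ENSRNOG00000030187, Mmp14 ENSRNOG00000010947, Mmp19 ENSRNOG00000006778, Timp1 ENSRNOG00000010208, Timp2 ENSRNOG00000003148 and Timp3 ENSRNOG00000004303. The animals were wild type adult female Sprague-Dawley rats, labelled as postnatal day 70. The thoracic cord was compressed with an aneurysm clip of 60 g for 1 min, and 7 days later hUC-MSCs (+MSC) or the saline vehicle (+PBS) were injected intrathecally. Segments of 5 mm around the lesion gave 3 libraries at the time of transplantation (sub-SCI). At 1, 2 and 4 wpt (weeks after transplantation) they gave 3, 2 and 4 libraries of +PBS (+PBS-1w, +PBS-2w, +PBS-4w) and 3, 3 and 4 libraries of +MSC (+MSC-1w, +MSC-2w, +MSC-4w), beside 4 libraries of uninjured cord (Intact). By the study's methods, Intact stands for intact or sham rats, rats received cyclosporin A daily against rejection, and reads that mapped to the human genome were removed before the rat reads were counted.

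Matrix metalloproteinases are zinc-dependent enzymes that cut collagens, laminins and other components of the extracellular matrix, and most are secreted as inactive precursors. The gelatinases Mmp2 and Mmp9 cleave basement membrane collagen, Mmp3 is a stromelysin, Mmp12 is the elastase of macrophages, and Mmp14 sits in the cell membrane and, together with Timp2, activates the precursor of Mmp2. The Timp proteins bind the active site of the enzymes. Timp1 and Timp2 are soluble, whereas Timp3 is held in the matrix and also inhibits enzymes of the ADAM and ADAMTS families. In the injured cord these enzymes are known for their part in opening the blood-spinal cord barrier, in the entry of leukocytes and in the later remodelling of the scar.

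The libraries held between 19496602 and 43468509 counts over all genes. Levels are given as CPM, read counts scaled to library size, and values between genes are compared only as CPM per kb of gene length. Genes were called DEGs where the log2 fold change was beyond 1 in either direction and edgeR's quasi-likelihood test, adjusted over all genes tested, gave p below 0.01. Markers of neurons and oligodendrocytes were high in the Intact libraries (summed CPM 8276 to 10150 over 7 neuronal genes and 49380 to 55950 over 6 oligodendrocyte genes). The libraries numbered 1 deviated from their groups together, with a correlation of 0.131 to 0.317 in the 8 comparisons of 2 groups without a 2 wpt group. Leaving out all of them left the count of DEGs among the 9 genes the same in every comparison except +MSC-4w against Intact, where it rose from 5 to 6. The study's methods call the libraries of a group biological replicates. The labels do not tie them to animals, so the p-values measure the spread between libraries, which may be technical in part.

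At the time of transplantation, 5 of the 9 genes were DEGs that were higher in sub-SCI than in Intact, namely Mmp2, Mmp12, Mmp14, Mmp19 and Timp1, and none was lower. Among all genes tested, 16.6% were higher DEGs and 17.5% lower DEGs in this comparison. All sub-SCI libraries lay above all Intact libraries for 7 of the 9 genes, as for 32.9% of all genes. Apart from Mmp12, which had almost no counts in Intact, the rises ran from 8.42-fold for Mmp2 to 21.3-fold for Timp1. Timp2 was 1.83-fold higher, and Timp3 had nearly the same mean in both groups.

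Mmp12 was the most extreme. In the Intact libraries its level was 0, 0, 0.0463 and 0.0760 CPM, which comes to 3 counts in all 4 libraries together. In sub-SCI it was 76.1, 83.4 and 106.5 CPM, or 8058 counts. The ratio of the pooled counts, scaled to library size, was 2586 with a 95% exact interval of 885 to 12540 that covers counting error only. The test gave an adjusted p of 3.14e-07 (edgeR, n = 3 and 4). The same ratio lay between 394 in +MSC-2w and 989 in +MSC-1w at the later times, so that no group after injury came near the Intact level.

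Timp1, an inhibitor known to be induced by injury and inflammation in many tissues, lay at 4.58, 11.2, 17.5 and 15.4 CPM in Intact and at 213.3, 213.0 and 353.0 CPM in sub-SCI. No library of one group reached the other, and the log2 fold change was 4.41 (95% interval 3.76 to 5.06, edgeR adjusted p = 2.73e-10). Mmp19, a secreted enzyme that cleaves basement membrane components, had the smallest SE of its log2 fold change among the 9 genes except Timp2, 0.22. Its Intact libraries stood at 5.35, 6.55, 7.45 and 8.13 CPM and its sub-SCI libraries at 85.1, 79.2 and 108.4 CPM, a log2 fold change of 3.72 (3.26 to 4.19, edgeR adjusted p = 2.97e-11).

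Mmp2 and Mmp14, the gelatinase and its membrane-bound activator, rose side by side. Mmp2 was at 11.4, 26.4, 39.0 and 36.8 CPM in Intact and at 222.2, 201.4 and 294.7 CPM in sub-SCI, with a log2 fold change of 3.07 (2.26 to 3.89, edgeR adjusted p = 8.33e-07). Mmp14 was at 13.8, 22.5, 48.3 and 49.6 CPM in Intact and at 224.3, 248.2 and 383.3 CPM in sub-SCI, with a log2 fold change of 3.09 (2.26 to 3.91, edgeR adjusted p = 8.67e-07). Intact replicate 1 was the lowest of its group for both genes. It also had the lowest sum of the 8 fibroblast markers, 153.3 CPM against 550.2 to 1112 in the other Intact libraries.

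Timp2, the most abundant of the 9 genes by group mean per kb of length in all 8 groups, went from 288.1, 379.7, 383.6 and 337.9 CPM to 624.0, 597.0 and 682.8 CPM. Its adjusted p was 0.000136 in edgeR, but the log2 fold change of 0.87 (0.52 to 1.22) was below the threshold for a DEG. Timp3 stood at 67.9, 122.7, 146.2 and 112.4 CPM in Intact and at 85.1, 78.2 and 175.5 CPM in sub-SCI, and the groups overlapped (log2 fold change 0.01, interval -0.87 to 0.88). Mmp3 was close to the limit of detection, with 2 to 9 counts in each Intact library and 18 to 46 in each sub-SCI library. It had a log2 fold change of 2.36 (SE 0.88) and an adjusted p of 0.0251 in edgeR, and it was a DEG with DESeq2 on all libraries (adjusted p = 0.00846). Over all settings the adjusted p ran from 0.000474 to 0.141.

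Mmp9, the gelatinase stored in neutrophil granules, depended on 1 Intact library. It was at 0.709, 2.25, 1.25 and 14.5 CPM in Intact replicates 1 to 4, and at 9.59, 9.71 and 11.8 CPM in sub-SCI. With all libraries the log2 fold change was 1.13 (-0.42 to 2.68, edgeR adjusted p = 0.195). Without Intact replicate 4 it was 2.87 (adjusted p = 0.000941), and Mmp9 then was a DEG in sub-SCI, +PBS-1w, +PBS-2w and +MSC-1w against Intact, with log2 fold changes of 2.87, 2.91, 3.48 and 2.85. Over all settings tried, the adjusted p of the sub-SCI comparison ran from 0.000941 to 0.422. The summed level of 7 neutrophil markers was 154.6 CPM in Intact replicate 4 and 12.9, 46.9 and 21.5 CPM in replicates 1 to 3, and 1 of the 7, Csf3r, was a DEG in sub-SCI against Intact. Their part in the Mmp9 value was not tested.

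**Figure D1:**
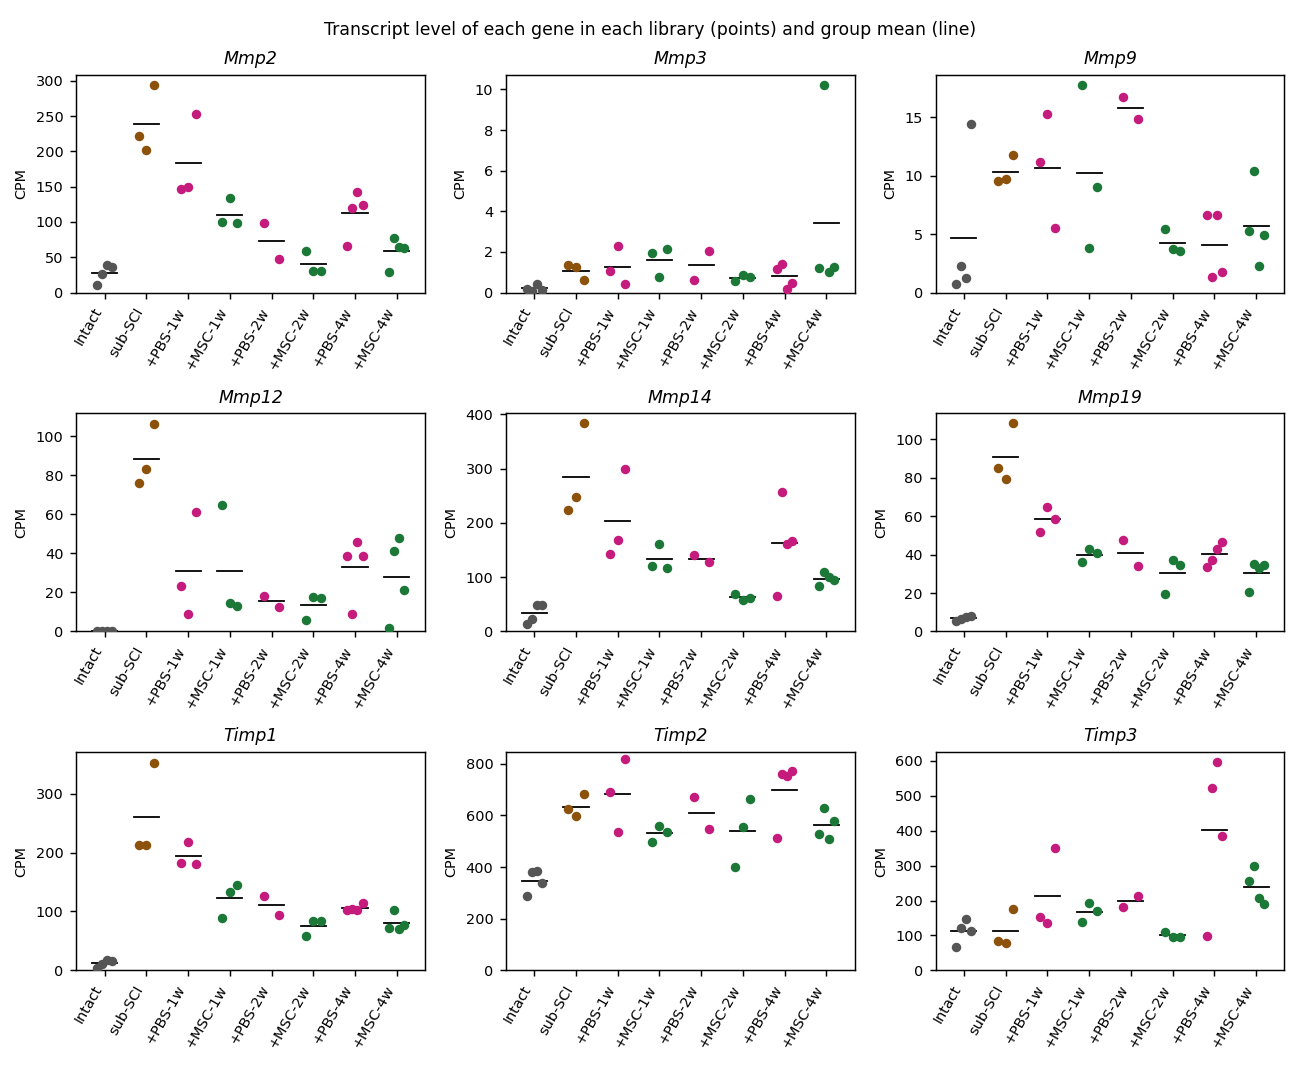
Level of each gene in CPM (linear axes from 0) in each of the 26 libraries, by group; points are libraries and lines are group means (brown sub-SCI, pink +PBS, green +MSC, grey Intact). Mmp12 is near 0 in all 4 Intact libraries and highest in the 3 sub-SCI libraries, whereas Timp3 is highest in 3 of the 4 +PBS-4w libraries, and single libraries stand apart for Mmp9 in Intact and for Mmp3 in +MSC-4w.

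Upstream sequences from RefSeq (build GRCr8) were at hand for 5 of the 9 genes. They are shown for Mmp12, Mmp3 and Timp1, because these hold the AP-1 element (TGANTCA, where N is any base) or a variant of it (TGAGTAA) in the 250 bases before the start. These motifs were searched on both strands, and the TATA box (TATAAA) on the strand of the gene only. AP-1 is a transcription factor family known from cell culture as a regulator of metalloproteinase genes. The motifs were chosen after the sequences had been seen. The 120 bases before the start are given 5′ to 3′ on the strand of the gene, with the element in capitals.
Mmp12 (chr8:12866532-12866651, plus strand): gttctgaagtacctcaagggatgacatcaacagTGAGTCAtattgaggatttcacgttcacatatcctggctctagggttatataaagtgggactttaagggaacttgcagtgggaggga
Mmp3 (chr8:12925161-12925280, plus strand): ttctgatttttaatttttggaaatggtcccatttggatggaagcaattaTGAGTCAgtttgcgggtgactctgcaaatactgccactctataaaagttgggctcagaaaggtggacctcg
Timp1 (chrX:3771123-3771242, minus strand): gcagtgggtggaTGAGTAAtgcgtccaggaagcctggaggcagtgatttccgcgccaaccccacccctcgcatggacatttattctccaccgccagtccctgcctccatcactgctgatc
The AP-1 element began 87 bases before the start of Mmp12 and 71 bases before that of Mmp3, and the variant began 108 bases before that of Timp1. Mmp3 held a copy of the variant as well, 144 bases before its start. Of 33469 promoters of the same length, 6.34% held the AP-1 element, 2.38% the variant and 8.06% the TATA box, which was found in Mmp12 and Mmp3, 39 and 32 bases before the start. None of the 3 was found in this window of Timp2 or Timp3. Mmp12 and Timp1 had their highest means in sub-SCI, and Mmp3 in +MSC-4w. The Mmp3 mean there rested on 1 library at 10.2 CPM, and the median of 1.24 CPM was below the 1.95 CPM of +MSC-1w.

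In the vehicle-treated cords, Mmp19 and Timp1 fell between transplantation and 4 wpt and stayed above Intact, while Timp3 rose. Against Intact, 5 of the 9 genes were DEGs that were higher in +PBS-1w (Mmp2, Mmp12, Mmp14, Mmp19, Timp1), 4 in +PBS-2w (the same without Mmp2) and 7 in +PBS-4w (those 5 with Timp2 and Timp3). None was lower. The share of all genes that were higher DEGs was 13.5%, 8.84% and 13.3% in these 3 comparisons, and 12.5%, 5.66% and 10.7% were lower DEGs. The +PBS-2w group has 2 libraries, and every one of the 9 genes was higher in both of them than in all 4 Intact libraries, as were 31.1% of all genes tested. Mmp14 was no longer a DEG in this group without +PBS-2w replicate 1 (log2 fold change 1.95, adjusted p = 0.0147, the highest over all settings).

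Compared directly, +PBS-4w lay below sub-SCI for Mmp19 and Timp1 and above it for Timp3. Among all genes, 3.09% were lower DEGs and 4.28% higher DEGs in this comparison. Mmp19 fell from 79.2 to 108.4 CPM in sub-SCI to 33.5, 37.2, 42.9 and 46.8 CPM in +PBS-4w, with a log2 fold change of -1.18 (-1.61 to -0.75, edgeR adjusted p = 0.000309). Timp1 stood at 102.4, 104.2, 102.6 and 114.3 CPM in +PBS-4w, all below the lowest sub-SCI library, with a log2 fold change of -1.30 (-1.88 to -0.71, edgeR adjusted p = 0.00214). Its call was lost with edgeR on the groups compared (log2 fold change -1.31, adjusted p = 0.0108) and without sub-SCI replicate 3 (-1.01, adjusted p = 0.0267, the highest over all settings). Mmp2 had a log2 fold change of -1.08 (-1.86 to -0.30) and an adjusted p of 0.0389 in edgeR, which is no DEG. For Mmp2, Mmp9, Mmp12, Mmp19 and Timp1 all 4 +PBS-4w libraries lay below all 3 sub-SCI libraries, as did 13.8% of all genes tested.

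Timp3 moved the other way. The +PBS-4w libraries stood at 98.3, 522.1, 598.5 and 386.0 CPM, so that 3 of the 4 were above every Intact and sub-SCI library and replicate 1 was within their range. The log2 fold change was 1.84 (1.00 to 2.67, edgeR adjusted p = 0.000645) against Intact and 1.83 (0.90 to 2.75, edgeR adjusted p = 0.00470) against sub-SCI. The call against sub-SCI was lost without sub-SCI replicate 1 or 2 or +PBS-4w replicate 2 or 3, with log2 fold changes of 1.66, 1.62, 1.68 and 1.57, and over all settings its adjusted p ran from 0.000125 to 0.0932. With edgeR on the groups compared, the call against Intact was lost too (adjusted p = 0.0146, over all settings 6.41e-06 to 0.0146). In +MSC-4w against Intact, Timp3 had a log2 fold change of 1.08 (SE 0.39, edgeR adjusted p = 0.0410), which is no DEG, but there it was a DEG with edgeR (1.12, adjusted p = 0.00401) and with DESeq2 (1.11, adjusted p = 7.66e-06) on the groups compared. Of 7 endothelial and pericyte markers listed, 6 were in the table, Cldn5 had no counts in any group, and 5 were tested. In +PBS-4w against Intact, 2 (Cdh5 and Pdgfrb) were higher DEGs and 0 were lower, while 3 had a positive and 2 a negative log2 fold change, 1 of these with an unadjusted p below 0.05, and the median was 0.058 against 0.051 over all genes. The summed level of these markers was also lowest in +PBS-4w replicate 1, at 187.7 CPM against 369.9 to 568.2 CPM in the other 3 libraries. That library had the lowest fibroblast sum of its group as well (1218 against 3471 to 4168 CPM). Its neuronal sum (5562 against 1424 to 1985 CPM) and oligodendrocyte sum (27180 against 15540 to 20250 CPM) were the highest. The part of these sums in the Timp3 value was not tested. Timp2 was a DEG in +PBS-4w against Intact with a log2 fold change of 1.01 (0.68 to 1.34), just over the threshold. It fell under the threshold without Intact replicate 1 or 4 or +PBS-4w replicate 2, 3 or 4 (0.959 to 0.997). With all libraries of these groups kept, it also fell under with DESeq2 scaling (0.998) and with DESeq2 on all libraries (0.999). The same held for edgeR (0.997) and DESeq2 (0.980) on the groups compared.

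**Figure D2:**
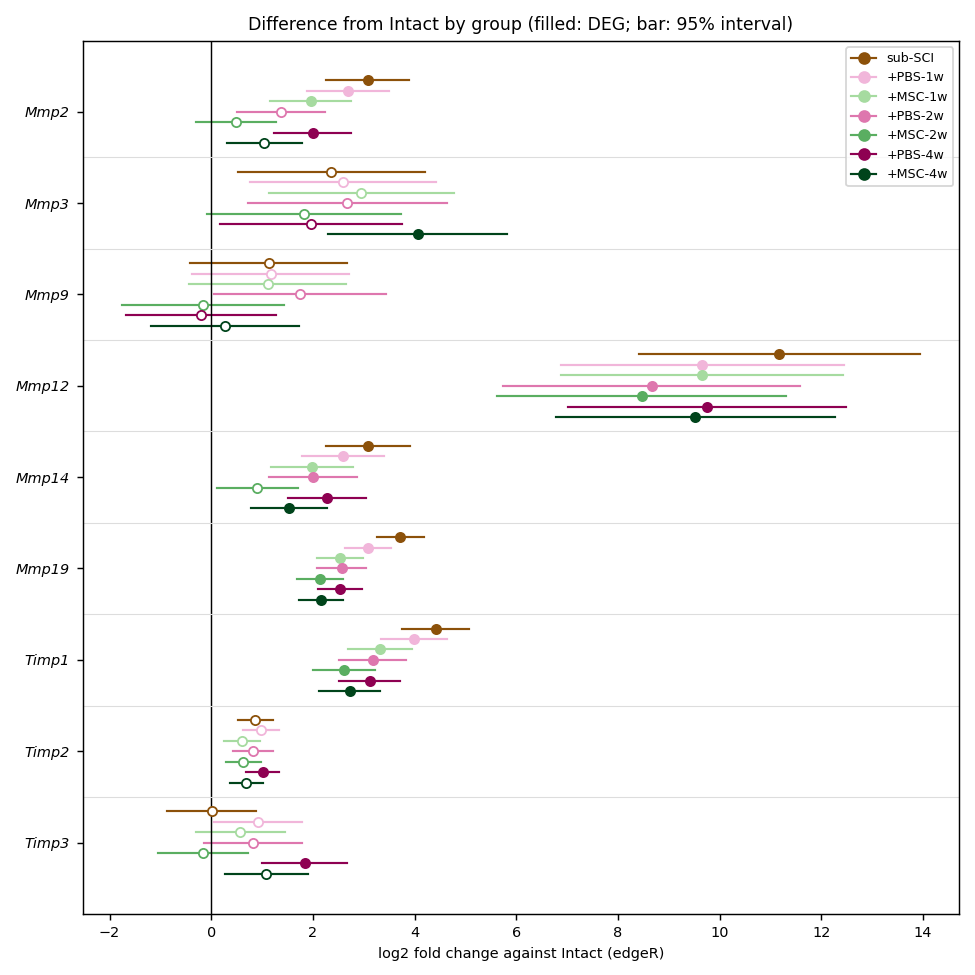
Log2 fold change of each gene in the 7 injured groups against Intact, from edgeR; filled circles are DEGs, open circles are not, and bars are 95% intervals not adjusted for the number of genes. Mmp12, Mmp19 and Timp1 are DEGs in all 7 groups, and Timp3 is a DEG in +PBS-4w and has log2 fold changes of 1.84 there and 1.08 in +MSC-4w.

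Per kb of length, the summed level of the 6 enzymes differed by a larger ratio between Intact and sub-SCI than that of the 3 inhibitors. The enzyme sum was 28.1 ± 13.3 CPM per kb (SD, n = 4) in Intact and 293.8 ± 66.8 (n = 3) in sub-SCI, while the inhibitors went from 289.8 ± 51.7 to 797.7 ± 165.6. The enzymes thus made up 8.54% ± 3.24 of the 9 genes in Intact and 26.9% ± 0.579 in sub-SCI, and 15.3% ± 0.496 in +PBS-4w (n = 4). Mmp12 alone was 17.0% ± 1.04 of the enzyme sum in sub-SCI and 0.0433% ± 0.0518 in Intact. Within the inhibitors Timp1 took a larger share after injury. It was 5.46% ± 2.06 of the sum in Intact, 43.4% ± 4.21 in sub-SCI and 19.1% ± 5.78 in +PBS-4w. These shares describe transcripts and were not tested.

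**Figure D3:**
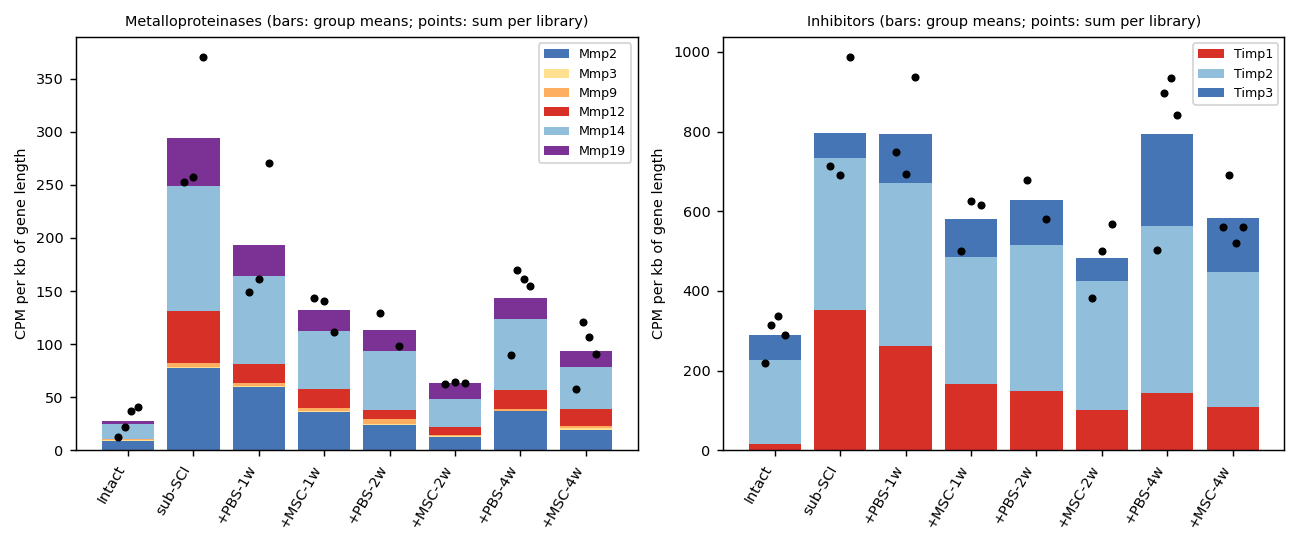
Summed level in CPM per kb of gene length of the 6 metalloproteinases (left) and the 3 inhibitors (right), by group; stacked bars are group means of each gene and points are the sums in single libraries. The enzyme sum is 28.1 in Intact and 293.8 in sub-SCI, and the inhibitor sum of the +PBS-4w group has 1 library, at 503.9, below the other 3.

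Markers of macrophages and fibroblasts moved with the same groups. All 10 microglia and macrophage markers and all 8 fibroblast markers were higher DEGs in sub-SCI than in Intact. Markers of neurons and oligodendrocytes moved the other way, with 7 of 7 and 4 of 6 lower DEGs in sub-SCI (median log2 fold changes -3.19 and -1.14). The neuronal sum lay at 383.8 to 1835 CPM in sub-SCI, 976.8 to 2336, 2296 to 4364 and 1424 to 5562 CPM in +PBS at 1, 2 and 4 wpt, and 3037 to 6489, 5072 to 7903 and 5086 to 6623 CPM in +MSC. The oligodendrocyte sum lay at 16640 to 34110 CPM in sub-SCI and at 11080 to 31270 CPM in the 6 later groups. The summed macrophage markers lay at 318.6 to 530.3 CPM in Intact, 3474 to 4683 in sub-SCI, 3767 to 5798 in +PBS-1w, 2595 to 3729 in +PBS-2w and 1969 to 3092 in +PBS-4w. The summed fibroblast markers lay at 153.3 to 1112, 6971 to 14090, 3609 to 8439, 1453 to 2154 and 1218 to 4168 CPM in the same groups. In +MSC-1w, +MSC-2w and +MSC-4w the macrophage sums were 2669 to 3146, 1816 to 2994 and 2157 to 2682 CPM, and the fibroblast sums 1892 to 2859, 427.9 to 831.0 and 662.9 to 2445 CPM. In bulk tissue, fewer cells of a type and less RNA per cell cannot be told apart, and the part of these cells in the values of the 9 genes was not tested.

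Between libraries of the same group, some of the 9 genes followed the same marker sums and others did not. As deviations from the group mean over 26 libraries, Mmp2 followed the fibroblast marker sum with a Pearson r of 0.944 and Mmp14 with 0.892. Mmp9 followed the neutrophil sum with 0.899 and the fibroblast sum with 0.108. Timp3 followed the endothelial and pericyte sum with 0.856 and the fibroblast sum with 0.716. Mmp12 had its highest r, 0.375, with the Schwann cell sum and one of 0.235 with the macrophage sum. Among the genes themselves, Mmp14 and Timp3 had an r of 0.80, Mmp2 and Mmp14 of 0.776, and Mmp19 and Timp1 of 0.660. The libraries share their depth and their tissue composition, and these correlations are descriptions.

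**Figure D4:**
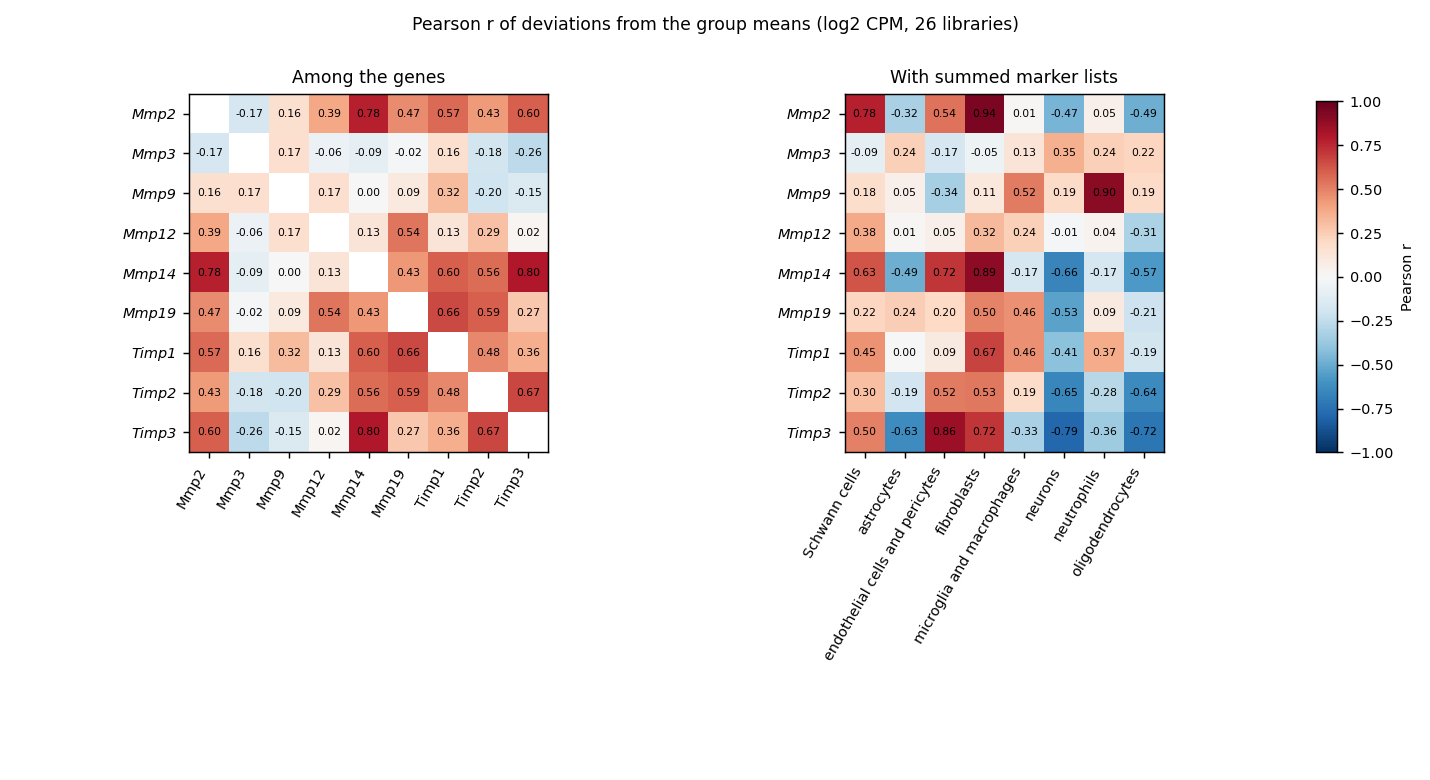
Pearson r of deviations from the group mean (log2 CPM, 26 libraries) among the 9 genes (left) and between each gene and the summed level of 8 marker lists (right); red is positive and blue negative. The highest values on the right are Mmp2 with fibroblast markers, 0.944, and Mmp9 with neutrophil markers, 0.899.

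The next comparison asks whether the hUC-MSCs changed these genes. At no single week was any of the 9 genes a DEG between +MSC and +PBS in edgeR. Of all genes, 0.0111% were lower DEGs and 0% higher DEGs at 1 wpt. The shares were 0% in both directions at 2 wpt, and 0% lower and 0.495% higher at 4 wpt. The 4 wpt share, from 89 genes, changed with single libraries. It came from 484 higher and 46 lower DEGs without +PBS-4w replicate 1, from 3 higher where +MSC-4w replicate 1 or else replicate 2 of +PBS-4w was left out, and from 25 to 78 higher without any of the other 5, while the count among the 9 genes was 0 each time. At an unadjusted p below 0.05, 2 of the 9 genes were lower at each week, and 1, Mmp3, was higher at 4 wpt. Of all genes, 7.34%, 6.84% and 11.3% were lower at this unadjusted threshold at 1, 2 and 4 wpt, and 10.6%, 5.49% and 11.2% were higher. DESeq2 with all libraries also called 0 of the 9 at each week. DESeq2 with only the 2 groups called Mmp9 and Mmp14 lower at 2 wpt, where +PBS has 2 libraries. Of the 17255 genes with an adjusted p in that fit, 337 were lower and 80 higher DEGs.

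Averaged over the 3 weeks, 8 of the 9 had a negative log2 fold change, with a median of -0.49 against -0.02 over all genes. None passed the DEG threshold (0.956% of all genes were lower and 1.61% higher DEGs), and 6 were lower and 0 higher at an unadjusted p below 0.05, as were 18.2% and 18% of all genes. The all-gene counts of 172 lower and 290 higher DEGs ran from 11 to 344 and from 34 to 548 with 1 library left out, lowest without +PBS-2w replicate 1 and highest without +PBS-4w replicate 1. DESeq2 with all libraries called 0 of the 9 as DEGs here too. At an adjusted p below 0.05 and any fold, 4 were lower, beside 10.9% of all genes. These were Mmp2 at -0.85 (-1.34 to -0.36, edgeR adjusted p = 0.0131), Mmp14 at -0.82 (-1.30 to -0.33, edgeR adjusted p = 0.0167), Mmp19 at -0.45 (-0.72 to -0.19, edgeR adjusted p = 0.0155) and Timp1 at -0.54 (-0.90 to -0.17, edgeR adjusted p = 0.0309). Without +PBS-2w replicate 1 none of the 9 had an adjusted p below 0.05 (Mmp2 -0.67, adjusted p = 0.0925; Mmp14 -0.81, 0.057; Mmp19 -0.39, 0.0921; Timp1 -0.48, 0.122). In that fit +PBS-2w replicate 2 stands alone for its group. Under the other settings, 3 to 6 of the 9 were lower at this threshold. With DESeq2 on all libraries, Mmp2, Mmp14, Mmp19 and Timp1 had log2 fold changes of -0.86, -0.83, -0.46 and -0.55. Their adjusted p in DESeq2 was 0.00249, 0.00393, 0.00476 and 0.0135.

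At 1 wpt, Mmp2 stood at 99.6, 133.6 and 98.4 CPM in +MSC and at 146.4, 150.2 and 253.0 CPM in +PBS. Timp1 stood at 88.7, 132.9 and 145.5 CPM in +MSC and at 181.9, 217.8 and 181.3 CPM in +PBS. Mmp19 stood at 36.4, 43.0 and 40.7 CPM in +MSC and at 51.9, 64.9 and 58.5 CPM in +PBS. For these 3 genes each +MSC library was below each +PBS library, which held for 11.6% of all genes tested. The log2 fold changes were -0.73 (-1.57 to 0.11), -0.66 (-1.30 to -0.03) and -0.55 (-1.01 to -0.08), with edgeR adjusted p of 0.358, 0.261 and 0.203.

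At 2 wpt the groups did not overlap for Mmp9, Mmp14, Timp1 and Timp3, all lower in +MSC, as were 18.4% of all genes tested. Mmp14 was at 68.3, 58.3 and 62.1 CPM in +MSC and at 140.7 and 127.3 CPM in +PBS (log2 fold change -1.09, -2.03 to -0.16, edgeR adjusted p = 0.348). Timp3 was at 108.9, 95.8 and 96.9 CPM in +MSC and at 181.7 and 213.4 CPM in +PBS (-0.97, -2.00 to 0.06, edgeR adjusted p = 0.428). Mmp9 was at 5.43, 3.78 and 3.55 CPM in +MSC and at 16.7 and 14.9 CPM in +PBS (-1.89, -3.73 to -0.05, edgeR adjusted p = 0.395). The summed neutrophil markers were 100.1 to 144.0 CPM in +MSC-2w and 427.5 to 455.7 CPM in +PBS-2w. None of the 7 was a DEG, 3 had an unadjusted p below 0.05, and their part in the Mmp9 difference was not tested.

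At 4 wpt none of the 9 genes was below +PBS in every +MSC library, against 4.47% of all genes tested. Mmp2 was at 29.5, 78.0, 64.2 and 63.2 CPM in +MSC and at 66.6, 119.7, 142.1 and 124.2 CPM in +PBS (-0.94, -1.68 to -0.21, edgeR adjusted p = 0.119). Timp3 was at 255.4, 298.7, 206.0 and 190.5 CPM in +MSC, within the span of the +PBS libraries given above (-0.76, -1.57 to 0.06, edgeR adjusted p = 0.255). Mmp3 had the one positive log2 fold change of size, 2.09 (0.59 to 3.59, edgeR adjusted p = 0.0962). It rested on +MSC-4w replicate 2, which held 468 counts or 10.2 CPM, whereas the other 3 libraries held 29 to 31 counts and 1.04 to 1.25 CPM. Without that library the log2 fold change was 0.53 (adjusted p = 0.634).

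The summed fibroblast markers were lower in each +MSC library than in each +PBS library at 1 and 2 wpt, and all 8 markers had a negative log2 fold change at each week, though none was a DEG. In the mean of the 3 weeks, all 8 were lower at an unadjusted p below 0.05 in edgeR, as were 18.2% of all genes. Their median log2 fold change was -1.23, and 0 of them were DEGs. Averaged over the 3 weeks, all 7 neuronal markers were higher at an unadjusted p below 0.05, with a median log2 fold change of 1.10 against -0.02 over all genes, and 3 of them (Nefl, Nefm and Rbfox3) were higher DEGs. Of the 5 endothelial and pericyte markers tested, Cdh5 was a lower DEG in this mean and 0 were higher, beside 0.956% and 1.61% of all genes. The log2 fold change was positive for 2 of the 5 and negative for 3, with a median of -0.19. The summed neuronal markers were higher in each +MSC library than in each +PBS library at 1 and 2 wpt and overlapped at 4 wpt. The part of these markers in the lower Mmp2 and Mmp14 values was not tested. The summed macrophage markers did not overlap at 1 wpt and overlapped at 2 and 4 wpt. Mmp12, the macrophage elastase, had log2 fold changes of -0.01 (-1.64 to 1.63), -0.20 (-2.05 to 1.65) and -0.23 (-1.65 to 1.19) at 1, 2 and 4 wpt. Each interval includes 2-fold changes in both directions. The +MSC-1w libraries stood at 65.0, 14.8 and 13.1 CPM and the +PBS-1w libraries at 23.2, 8.99 and 61.5 CPM. The difference between the 4 wpt and the 1 wpt contrast gave no DEG among the 9 genes, each with an edgeR adjusted p of 0.999, and 0 of them had an unadjusted p below 0.05. DESeq2 with all libraries called 0 of the 9 as well. Among all genes edgeR called 0% in either direction, while DESeq2 with all libraries called 0 higher and 1 lower. At an unadjusted p below 0.05 in edgeR, 1.86% of all genes were higher and 2.04% lower.

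**Figure D5:**
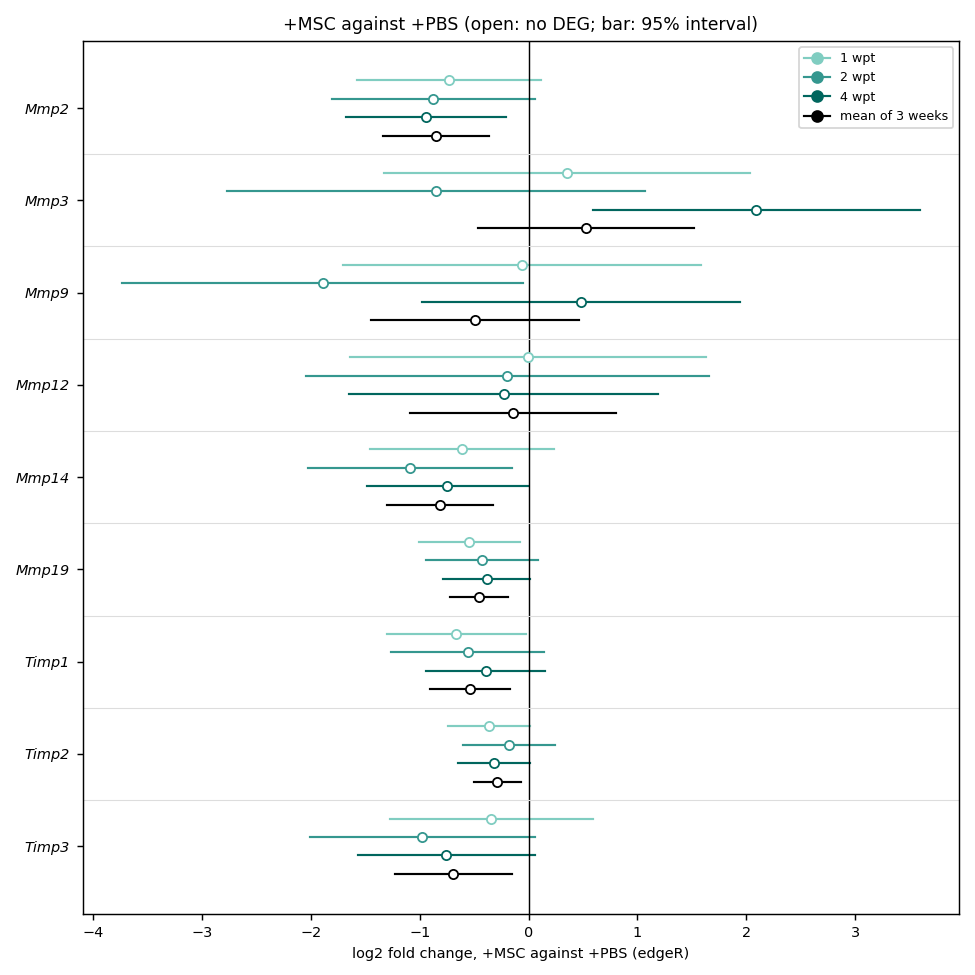
Log2 fold change of each gene between +MSC and +PBS at 1, 2 and 4 wpt and averaged over the 3 weeks, from edgeR; open circles mean that no value is a DEG, and bars are 95% intervals not adjusted for the number of genes. All genes except Mmp3 and Mmp9 lie below 0 at the 3 weeks and in their mean, and Mmp3 lies above 0 at 1 and 4 wpt and in the mean.

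Against Intact, 5, 3 and 5 of the 9 genes were higher DEGs in the transplanted cords at 1, 2 and 4 wpt, and 0 were lower. Higher DEGs were Mmp2, Mmp12, Mmp14, Mmp19 and Timp1 in +MSC-1w, Mmp12, Mmp19 and Timp1 in +MSC-2w, and Mmp3, Mmp12, Mmp14, Mmp19 and Timp1 in +MSC-4w, beside 7.87%, 5.6% and 7.25% of all genes. Lower DEGs were 2.63%, 0.461% and 1.53% of all genes. These comparisons share their Intact libraries with those of +PBS. In +MSC-2w, Mmp2 stood at 59.3, 30.5 and 29.96 CPM, overlapping with Intact (log2 fold change 0.49, -0.30 to 1.28, edgeR adjusted p = 0.397). The Mmp3 call in +MSC-4w (4.06, 2.30 to 5.81, edgeR adjusted p = 0.00104) was lost without replicate 2 (2.49, adjusted p = 0.0113). DESeq2 on the groups compared gave Mmp3 no p-value here (log2 fold change 4.11), and 0.0113 was the highest adjusted p among the settings that gave one. The Mmp14 call in +MSC-4w (1.53, 0.78 to 2.28, edgeR adjusted p = 0.00310) was lost without Intact replicate 1 or 2 or +MSC-4w replicate 2, with log2 fold changes of 1.30, 1.40 and 1.47 and a highest adjusted p of 0.0132.

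Ordered by their means, the groups came in different orders for the 9 genes. Intact was lowest for 7 of them, with +PBS-4w lowest for Mmp9 and +MSC-2w for Timp3. Sub-SCI was highest for Mmp2, Mmp12, Mmp14, Mmp19 and Timp1. The highest group was +PBS-2w for Mmp9, +PBS-4w for Timp2 and Timp3, and +MSC-4w for Mmp3, there through 1 library at 10.2 CPM. For Mmp12 and Mmp19 the sub-SCI libraries lay wholly above the next group, while for Mmp2, Mmp14 and Timp1 they overlapped with +PBS-1w. For Mmp9 each group overlapped with its neighbour in the order.

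Over the 8 group means, the genes most like Mmp12 were Lgals3, which encodes galectin-3 of macrophages, with a Pearson r of 0.991, and Stap1 (0.991). Those most like Timp1 were Casp1, the protease that activates interleukin-1 beta (0.999), and Arhgap30 (0.999). Those most like Mmp19 were Ripk3, a kinase of necroptosis (0.999), and Clic1 (0.998), and those most like Mmp2 were Adamts14 (0.992) and Adamts7 (0.990). For Mmp14 they were Tnfrsf26 and Rgs16 (both 0.996), for Timp2 Adam15 (0.994) and Mif4gd (0.990), for Timp3 Sult1a1 and Gng14 (both 0.987), for Mmp3 Mcam (0.948) and Actl7b (0.937), and for Mmp9 Sri (0.932) and Gxylt1 (0.925). The 8 group means cannot separate genes of near-equal r, and most of these names depend on the measure. With Spearman's correlation over the same means, 7 of the 9 had neither of their 2 genes in common with this list, and over the 26 libraries 8 of the 9 had neither. Over the 26 libraries, the genes most like Mmp12 were Atf3 (0.966) and Arl11 (0.965) and those most like Timp1 were Clic1 (0.983) and Ctsc (0.982). In the same ranking, the gene most like Mmp2 was Pcolce (0.968), followed by Col1a1 (0.967), and the gene most like Mmp9 was Mcemp1 (0.901).

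Lists of related genes were followed in the same way. Of 12 genes for the activation and clearance of metalloproteinases, 7 were higher DEGs and 0 lower in sub-SCI than in Intact, with a median log2 fold change of 1.66 against -0.02 over all genes. Plau, the urokinase that generates plasmin, went from 1.28 ± 0.580 CPM (SD, n = 4) to 92.8 ± 20.1 (n = 3), a log2 fold change of 6.15 (edgeR adjusted p = 6.47e-10). Plaur, the urokinase receptor, had a log2 fold change of 5.41 (edgeR adjusted p = 2.69e-09). Furin, which cleaves the precursor of Mmp14, had one of 2.03 (edgeR adjusted p = 1.34e-10).

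Of 14 ADAM and ADAMTS proteinases, 10 were higher DEGs and 0 lower in sub-SCI, led by Adam8 at a log2 fold change of 3.56 (edgeR adjusted p = 1.67e-07). Of the 17 other metalloproteinase and inhibitor genes listed, 16 were in the table and 9 were tested. In sub-SCI, Mmp7, Mmp8 and Mmp23 were higher and Timp4 was lower. Mmp8, the neutrophil collagenase, was at 4.90 ± 4.74 CPM (SD, n = 4) in Intact and at 118.6 ± 17.9 CPM (n = 3) in sub-SCI. Timp4 was at 44.3 ± 3.97 CPM in Intact, 13.0 ± 3.45 in sub-SCI and 40.7 ± 10.2 (n = 4) in +PBS-4w, and its log2 fold change of -1.77 in sub-SCI (edgeR adjusted p = 8.30e-07) is opposite in sign to those of Timp1 and Timp2.

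Between +MSC and +PBS, averaged over the 3 weeks, 0 of the 12 activation and clearance genes were DEGs. Among the 14 ADAM and ADAMTS genes 2 were DEGs, and among the 9 other genes tested 1 was, all lower. Of all genes, 0.956% were lower and 1.61% higher DEGs. The 172 lower DEGs among all genes fell to 11 without +PBS-2w replicate 1, and whether the genes named here stayed among them was not examined. Adam8, a protease of leukocytes, had a log2 fold change of -1.20 (edgeR adjusted p = 0.00202). Adamts2, which removes the amino-terminal propeptide of fibrillar collagen, had one of -1.18 (edgeR adjusted p = 0.00844), and Mmp23 one of -1.07 (edgeR adjusted p = 0.00208).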

How the data were processed

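Libraries were poly(A)-selected and sequenced as 150 bp read pairs. By the submitters' processing notes and the study's methods, the authors trimmed reads with Trim Galore 0.5.0, removed those that HISAT2 2.1.0 aligned to the human genome (GRCh38), mapped the remaining reads to rat (Rnor6), used SAMtools 1.9 to retain properly paired alignments, and deposited raw read counts per gene from featureCounts 1.6.4. The annotation release and strand setting are not given in the sources used here. Libraries were grouped by their titles. The single-library files matched the joint count table in 26 of 26 cases.

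Counts were fitted with edgeR 4.0.16 in R 4.3.3 (filterByExpr, TMM scaling, quasi-likelihood test, 1 model of 8 groups and 26 libraries), with Benjamini-Hochberg adjustment over 17990 genes. Intervals at 95% used the t distribution of the fit. Libraries held 19496602 to 43468509 counts. CPM used TMM-scaled totals. The test was checked on simulated data with known changes. DESeq2 1.42.0, other filters and scalings and left-out libraries were alternatives. The replicate 1 alternatives were chosen after seeing the data. The 9 genes, the gene lists and the tests were chosen with earlier results of these data known. The genes named are the 9, those of 3 related lists, the 2 most like each of the 9 and markers. Correlations used log2 CPM with a prior count of 2.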

Additional observations from a re-analysis of the deposited data

Results flagged for a closer look

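In 27 sets of 4 libraries (9 genes in the Intact, +PBS-4w and +MSC-4w groups), 5 had a single library far from the others. This was judged on log2 CPM, by the gap to the nearest library as a share of the range of the group. The CPM values printed below are not on that scale, on which Mmp9 in Intact was not marked. By chance about 1 in 20 would be marked. Mmp3 in +MSC-4w replicate 2 (share 0.922) is described above. Mmp12 was low in +PBS-4w replicate 2 (0.891), at 8.93 CPM against 38.6 to 46.1 CPM in the others. Mmp19 was low in +MSC-4w replicate 1 (0.877), at 20.3 CPM against 32.9 to 35.1 CPM. Timp1 was high in +PBS-4w replicate 4 (0.845), at 114.3 CPM against 102.4 to 104.2 CPM, a small difference in a narrow group. Timp2 was low in +PBS-4w replicate 1 (0.934), at 513.7 CPM against 752.7 to 773.2 CPM.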

How the results depend on the processing

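The number of the 9 genes called kept within 1.5 times its value under most alternatives. With at least 10 counts in every library, where Mmp3 and Mmp12 are no longer tested, it moved in +MSC-4w against Intact (3 against 5). There 1057 of all 14181 genes were higher and 237 lower DEGs. In +PBS-4w against sub-SCI it moved with edgeR on the groups compared (1 against 3), beside 51 higher and 184 lower of 16678 genes. In +MSC-2w against +PBS-2w it moved with DESeq2 on the groups compared (2 against 0), beside 80 higher and 337 lower of 17255 genes. At an adjusted p below 0.05 and any fold, the count was 7 against 4 in +PBS-2w against Intact. Of all 17990 genes, 3537 were higher and 3067 lower there. In +MSC-4w against Intact it was 8 against 5, beside 3176 higher and 2438 lower of all genes. In the mean of 3 weeks it was 4 against 0, beside 2207 higher and 1966 lower of all genes. Leaving out 1 library gave 3 to 6 in +MSC-4w against Intact, with 3 reached without +MSC-4w replicate 2. Among all genes, 1055 to 1443 were higher and 127 to 424 lower DEGs in these fits. In +PBS-4w against sub-SCI the count was 2 to 3, beside 354 to 1007 higher and 361 to 593 lower. In +PBS-2w against Intact it was 4 to 5 without an Intact library, beside 1419 to 1592 higher and 720 to 901 lower. Mmp14 was lost there without +PBS-2w replicate 1, as given above. The +MSC against +PBS comparisons gave 0. Mmp2 was gained in +PBS-2w without its replicate 2 (log2 fold change 1.79, adjusted p = 0.00905) and in +MSC-4w without its replicate 1 (1.27, adjusted p = 0.00935). Timp2 was gained in +PBS-1w against Intact without Intact replicate 2 or 3 or +PBS-1w replicate 2 (1.09, 1.02 and 1.12). Of the log2 fold changes under the alternatives, 2003 kept direction and side of the threshold, 49 passed it, 22 lost it and 46 changed sign. These totals include the looser threshold, which was applied to the main fit without refitting. The causes were not tested.

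The log2 fold changes that changed sign were small or variable ones, and none of them was called. With the replicate block they were -0.038 for Timp3 in sub-SCI against Intact, 0.40 and 0.53 for Mmp9 in +PBS-4w and +MSC-2w against Intact, and 0.28 for Mmp12 in +MSC-1w against +PBS-1w, which was 0.070 with a term for replicate 1. With all replicate 1 libraries left out they were 0.44, 0.055 and 0.14 for Mmp12, Mmp19 and Timp2 in +MSC-2w against +PBS-2w, 0.25 for Mmp12 in +MSC-4w against +PBS-4w, -0.16 for Mmp2 in +MSC-2w against Intact, -0.017 for Mmp9 in +MSC-4w against Intact, and 1.58 and -0.10 for Mmp12 and Timp2 in the difference between 4 and 1 wpt. Leaving out 1 library, Mmp12 ran from -1.16 to 0.94 at 1 wpt, -0.45 to 0.16 at 2 wpt, -0.61 to 0.16 at 4 wpt, -0.53 to 0.17 in their mean and -1.17 to 0.93 in the difference between 4 and 1 wpt. In that difference Mmp2 ran from -0.52 to 0.0054, Mmp14 from -0.53 to 0.18 and Timp2 from -0.11 to 0.19. In +MSC against +PBS, Mmp3 ran from -0.043 to 1.07 at 1 wpt and -1.44 to 0.20 at 2 wpt, Mmp9 from -0.74 to 0.33 and Timp3 from -0.58 to 0.22 at 1 wpt. Against Intact, Timp3 ran from -0.46 to 0.21 in sub-SCI, and Mmp9 from -0.53 to 1.54 in +PBS-4w, -0.48 to 1.59 in +MSC-2w and -0.20 to 2.02 in +MSC-4w, each highest without Intact replicate 4.

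The groups share replicate numbers. Samples of one number did not all deviate together in any comparison (correlations -0.164 to 0.317), so that the numbers were not taken to pair the samples. With the replicate block, 1800 of all 17990 genes were higher and 1343 lower DEGs in +PBS-2w against Intact. There Mmp2 was added (1.67, edgeR adjusted p = 0.00534) and the count of called genes was 5. In the other comparisons that count was the one of the unblocked fit. With all replicate 1 libraries left out, an alternative added after seeing the data, it differed in +MSC-4w against Intact, where it was 6. Groups hold 2 to 4 libraries, and few reads were counted for Mmp3 and for Mmp12 in Intact.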
